A study of Mus musculus with 16 samples.

Results

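The genes described here are the mitophagy receptors and the kinase PINK1 in CD8+ T cells of mice: Pink1, Bnip3, Bnip3l, Fundc1, Bcl2l13, Fkbp8 and Phb2. They were chosen by name, as proteins that mark damaged mitochondria or tie them to the autophagosome. The choice was made with earlier results of these data known. All 7 were among the 13275 genes of the RNA table, and 60 of 223740 ATAC peaks in vitro and 87 of 304644 ATAC peaks in tumours overlapped their gene bodies extended by 2 kb at each end. The cells were T cells of Pmel mice, whose T cell receptor recognises a melanocyte antigen, and an LC3-GFP-RFP transgene gave them a reporter of LC3, which is bound to autophagosome membranes. FACS separated LC3-GFP positive from LC3-GFP negative cells. All groups had 3 days of stimulation through CD3 and CD28 (each antibody at 2 µg/ml) with IL2 at 100 IU/ml, and all were treated with carbon monoxide (CO) for 24 h before the sort. An untreated group was not analysed here.

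RNA was measured in 2 LC3-GFP positive and 2 LC3-GFP negative libraries, and open chromatin by ATAC-seq, a Tn5 transposase assay of accessible DNA, in another 2 positive and 2 negative libraries of sorted cells in vitro. For the in vivo libraries, C57BL/6 mice bearing B16-F10 melanoma for 12 days received positive or negative cells. After 15 days Vβ13+CD8+ cells were recovered by FACS from each tumour separately, with 4 mice per group, so these populations are named for the cells transferred and not for reporter fluorescence in the tumour. The labels give no age of the mice and no promoter for the reporter, and leave unsaid if separate animals or cultures gave the RNA and in vitro replicates. Their p-values therefore reflect the spread between these libraries alone, and that spread may be technical.

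Mitophagy is the removal of mitochondria by autophagy. In the ubiquitin route, PINK1 is imported and degraded in healthy mitochondria, builds up on the outer membrane of damaged ones and activates the ubiquitin ligase Parkin, after which adaptor proteins tie ubiquitin to LC3. In the receptor route, proteins of the mitochondrial membranes bind LC3 or its relatives directly: BNIP3 and NIX (the product of Bnip3l), both known targets of the hypoxia factor HIF1, FUNDC1, BCL2L13 and FKBP8 in the outer membrane, and the prohibitin PHB2 in the inner membrane. In CD8+ T cells, NIX is known for clearing mitochondria as effector cells give way to memory cells.

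RefSeq promoter sequence (GRCm38.p6, the assembly behind mm10) was matched for 6 of the 7 genes, and Bnip3l had no entry. The Fundc1 entry begins inside the gene as used here. The 250 bases before that entry, chrX:17572008-17572257 (minus strand), lie downstream of the gene start at 17572325. The 250 bases before the start are shown for the 2 called genes with an entry, Pink1 and Bnip3, and for Phb2, whose peak over the start is described with the tumour results. Capitals mark matches on either strand to ACGTG, a form of the core of the hypoxia response element, or to CACGTG, the E-box that holds this form. Other forms of the core, such as GCGTG, were not searched and are not marked. Pink1 lies at chr4:138326297-138326546, Bnip3 at chr7:138909507-138909756 (both minus strand) and Phb2 at chr6:124712039-124712288 (plus strand).
Pink1: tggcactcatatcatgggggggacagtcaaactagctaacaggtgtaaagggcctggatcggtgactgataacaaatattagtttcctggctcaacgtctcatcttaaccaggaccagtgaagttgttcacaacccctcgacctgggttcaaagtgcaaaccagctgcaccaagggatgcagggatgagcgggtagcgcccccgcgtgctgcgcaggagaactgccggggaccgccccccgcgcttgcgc
Bnip3: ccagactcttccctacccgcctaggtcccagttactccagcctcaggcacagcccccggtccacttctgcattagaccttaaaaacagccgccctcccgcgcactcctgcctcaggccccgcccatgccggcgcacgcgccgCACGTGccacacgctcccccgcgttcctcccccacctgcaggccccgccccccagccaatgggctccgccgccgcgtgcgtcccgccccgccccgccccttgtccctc
Phb2: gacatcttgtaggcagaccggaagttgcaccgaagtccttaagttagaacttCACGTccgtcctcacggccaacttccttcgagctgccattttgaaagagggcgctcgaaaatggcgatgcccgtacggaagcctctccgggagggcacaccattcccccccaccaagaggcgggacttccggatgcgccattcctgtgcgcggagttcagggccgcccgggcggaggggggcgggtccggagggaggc

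The Bnip3 window held 1 CACGTG, at 108 to 103 bases before the start, which reads ACGTG on both strands. Over the windows from 250 bases before to 50 bases after each start, ACGTG was found in 3 of the 6 members (Phb2, Bnip3 and Fkbp8) and in 19.6% of 32851 RefSeq promoters, and CACGTG in Bnip3 alone of the 6 and in 7.15% of promoters. TGACNNNGC, the antioxidant response element, was found in Bcl2l13 alone of the 6 and in 12.4% of promoters. No member window held TGATGNAA (an ATF4 site), TGACGTCA (the cyclic AMP response element) or TGTTTAC (a FOXO site), which were found in 3.97%, 1.79% and 3.65% of promoters. The Fundc1 window lay inside the gene body, so it does not describe the bases before the start used here. A match is a string of letters and not evidence of binding.

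Pink1, Bnip3 and Bnip3l had less RNA in LC3-GFP positive cells, and no member had more by the test. Levels are in CPM (counts scaled to library size), and the test was the quasi-likelihood test of edgeR, adjusted by Benjamini-Hochberg over 12022 genes, with a threshold of 0.05. Of the 7 members 3 were lower, beside 13.6% of all genes tested, and 0 were higher, beside 11.3%. The median log2 fold change of the members was -0.07, against 0.00 over all genes tested. In bulk RNA, fewer cells of a kind that express a gene and less RNA per cell cannot be told apart.

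Pink1 (chr4:138313410-138326296, mm10) encodes the kinase that marks damaged mitochondria. Its RNA stood at 28.0 and 31.5 CPM in positive replicates 1 and 2, against 40.4 and 46.5 CPM in negative replicates 1 and 2, from 502 and 502 counts in positive and 624 and 665 in negative libraries. Both positive libraries lay below both negative ones, an order whose share over all genes tested was not counted. The positive mean was 29.7 ± 2.51 CPM and the negative mean 43.4 ± 4.32 CPM (SD, n = 2 each), a log2 fold change of -0.55 (SE 0.091, edgeR adjusted p = 0.000225), or 1.46-fold lower in positive cells. Of all genes tested, 90.0% had a smaller absolute log2 fold change.

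Bnip3 (chr7:138890836-138909506) encodes a BH3-like outer membrane receptor. It measured 428 and 443 CPM in positive libraries, against 534 and 538 CPM in negative libraries. The 2 groups did not overlap, and the replicates of each lay close together. The log2 fold change was -0.30 (SE 0.043, edgeR adjusted p = 6.22e-05), or 1.23-fold lower in positive cells.

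Bnip3l (chr14:66985240-67008877) encodes NIX, the BNIP3 relative known for clearing mitochondria from maturing red cells. Its RNA was 254 and 249.7 CPM in positive libraries, against 287 and 300.04 CPM in negative libraries. The groups again did not overlap. The log2 fold change was -0.22 (SE 0.046, edgeR adjusted p = 0.00165), smaller in size than those of Bnip3 and Pink1, although the differences among the 3 changes were not tested. The share of tested genes with a smaller absolute log2 fold change was 75.2% for Bnip3 and 63.9% for Bnip3l. Both changes were smaller in size than the median absolute log2 fold change of called genes, 0.32.

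Fundc1 (chrX:17555600-17572325), an outer membrane receptor whose phosphorylation controls its binding to LC3, stood at 30.1 and 28.1 CPM in positive libraries, against 23.8 and 28.0 CPM in negative libraries. Positive replicate 2 and negative replicate 2 nearly met. The log2 fold change was 0.17 (95% interval -0.03 to 0.38, edgeR adjusted p = 0.213). Without negative replicate 2 it was 0.29 (edgeR adjusted p = 0.0352), in a fit that called 13.1% of genes higher and that takes its spread from the positive pair alone, the lone negative library being assumed to vary alike.

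Bcl2l13 (chr6:120836230-120892842), a BCL2-like receptor related in function to the yeast protein Atg32, measured 79.4 and 73.2 CPM in positive libraries, against 80.8 and 79.8 CPM in negative libraries. Its log2 fold change was -0.07 (95% interval -0.20 to 0.06, edgeR adjusted p = 0.432). Fkbp8 (chr8:70527743-70535328), an FK506-binding protein anchored in the outer membrane that binds LC3A, measured 229 and 225 CPM in positive libraries, against 236 and 231 CPM in negative libraries. Its log2 fold change was -0.04 (95% interval -0.14 to 0.06, edgeR adjusted p = 0.561). For Bcl2l13 and Fkbp8 too, both positive libraries lay below both negative ones, so groups that did not overlap were not limited to called genes. Without the share over all genes, such an order is not read as a trait of the members. Phb2 (chr6:124712289-124716945), the inner membrane prohibitin that binds LC3 once the outer membrane is broken, measured 275 and 289 CPM in positive libraries, against 299.65 and 268 CPM in negative libraries. The negative libraries enclosed the positive ones, and the log2 fold change was -0.01 (95% interval -0.12 to 0.10, edgeR adjusted p = 0.917). 

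**Figure D1:**
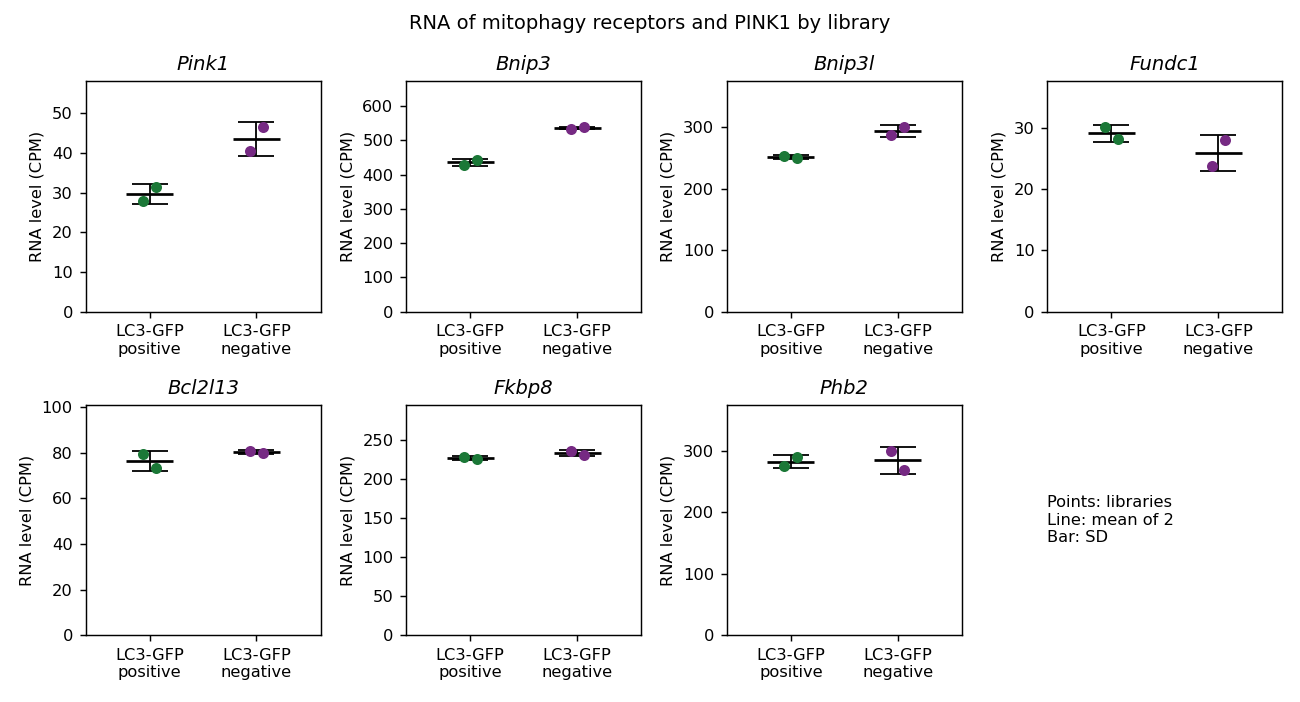
RNA levels in CPM of the 7 genes in each library, with LC3-GFP positive to the left of negative; points are libraries, lines are means of 2 and bars are SD. Pink1, Bnip3, Bnip3l, Bcl2l13 and Fkbp8 are lower in both positive libraries than in either negative one, and Fundc1 is higher. The Phb2 libraries overlap. Of these genes only Pink1, Bnip3 and Bnip3l pass the test. The share of all genes tested whose groups do not overlap was not counted.

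Some facts of the libraries stand beside these changes. Total counts were 17557628 and 15605902 in positive and 15850657 and 14567540 in negative libraries, and Rn45s, the ribosomal RNA precursor, took 1.43% and 1.51% of counts in positive libraries, against 3.20% and 3.58% in negative libraries. CD8 T cell markers were high in all libraries (Cd8a at 524 and 534 CPM in positive libraries, against 583 and 618 CPM in negative libraries), and 7 of 8 of them were lower in positive cells by the same test. Of 6 B cell markers tested 5 were higher in positive cells, with summed levels of 15.0 and 13.5 CPM in positive libraries, against 4.47 and 6.01 CPM in negative libraries. Among the B cell markers, Ms4a1 was at 0 CPM in negative replicate 1 and Cd22 at 0 CPM in negative replicate 2. Of 3 macrophage and monocyte markers tested, Mpeg1 was higher and Cd68 lower in positive cells, and the summed level of the list was 4.35 and 4.33 CPM in positive libraries, against 7.18 and 7.06 CPM in negative libraries. Of the CD4 T cell markers 2 were tested: Cd4 was higher (4.40 and 3.39 CPM in positive libraries, against 0.971 and 0.699 CPM in negative libraries) and Zbtb7b lower (log2 fold change -0.48), with summed levels of 58.6 and 53.6 CPM in positive libraries, against 77.2 and 70.2 CPM in negative libraries. Of the NK cell markers 2 were tested and both were lower. Klrb1c had 1.56 and 2.95 CPM in positive libraries, against 5.76 and 7.69 CPM in negative libraries, while most of the summed level (36.1 and 37.2 CPM in positive libraries, against 104 and 97.0 CPM in negative libraries) was Eomes, which CD8 T cells also express. Of the fibroblast list neither gene tested passed, with sums of 3.18 and 2.45 CPM in positive libraries, against 3.95 and 2.31 CPM in negative libraries. Their part in the changes of Pink1, Bnip3 and Bnip3l was not tested.

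The genes around the members moved in different directions. Their lists were also chosen with earlier results of these data known, so the counts below are descriptions. Of 14 HIF1 targets listed beside Bnip3 and Bnip3l, 12 were lower in positive cells and 0 were higher, with a median log2 fold change of -0.32. Ndrg1, a stress-induced gene, had 178 and 168 CPM in positive libraries, against 313 and 311 CPM in negative libraries (log2 fold change -0.85, SE 0.048, edgeR adjusted p = 5.13e-10). Ero1l, an oxidase that forms disulfide bonds in the endoplasmic reticulum, had a log2 fold change of -0.62 (SE 0.048, edgeR adjusted p = 4.00e-08), and P4ha2, a collagen prolyl hydroxylase, one of -0.48 (SE 0.083, edgeR adjusted p = 0.000381). Ankrd37 and Car9 did not pass the test.

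In the ubiquitin route, 1 of 14 genes of PINK1 import and turnover was higher and 2 were lower, with a median of 0.13. Lonp1, the matrix protease that degrades PINK1, measured 244 and 261 CPM in positive libraries, against 346 and 322 CPM in negative libraries (log2 fold change -0.40, SE 0.050, edgeR adjusted p = 1.22e-05). Afg3l2, a subunit of the inner membrane m-AAA protease, was also lower (-0.30, edgeR adjusted p = 0.000118), and Tomm70a, a receptor of the outer membrane translocase, was higher (0.15, edgeR adjusted p = 0.0256). Of 19 genes of the Parkin branch, 1 was higher (the ubiquitin ligase gene Huwe1, log2 fold change 0.16) and 1 was lower (the channel gene Vdac1, a Parkin substrate, -0.17), with a median of 0.00. Parkin itself was not analysed here. Of 5 genes listed as ubiquitin-binding adaptors, 0 were higher and 2 were lower, with a median of -0.07. Sqstm1, which encodes the adaptor p62, measured 121 and 116 CPM in positive libraries, against 186 and 178 CPM in negative libraries (log2 fold change -0.62, SE 0.051, edgeR adjusted p = 9.76e-08). The other listed gene that fell was Calcoco1 (-0.43, edgeR adjusted p = 0.0374), whose part in mitophagy was not tested.

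Among the enzymes and partners that act on the receptors, 1 of 14 tested was lower (Ambra1, which can recruit ULK1, log2 fold change -0.17, edgeR adjusted p = 0.0357) and 0 were higher, with a median of -0.04. Among relatives and partners of the members, 1 of 10 was higher and 0 were lower, with a median of 0.06. That gene was Bax, a pore former of the outer membrane, at 178 and 181 CPM in positive libraries, against 140 and 155 CPM in negative libraries (log2 fold change 0.28, edgeR adjusted p = 0.000885). Of 15 nuclear genes of abundant mitochondrial proteins, 6 were higher and 0 were lower, with a median of 0.10. The 3 with the largest changes were Sdhb, a subunit of succinate dehydrogenase (0.26, edgeR adjusted p = 0.0032), Tfam, the packaging factor of mitochondrial DNA (0.24, edgeR adjusted p = 0.0186), and Ndufv1, a subunit of complex I (0.21, edgeR adjusted p = 0.016). These counts stand beside 11.3% of all genes tested called higher and 13.6% called lower.

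**Figure D2:**
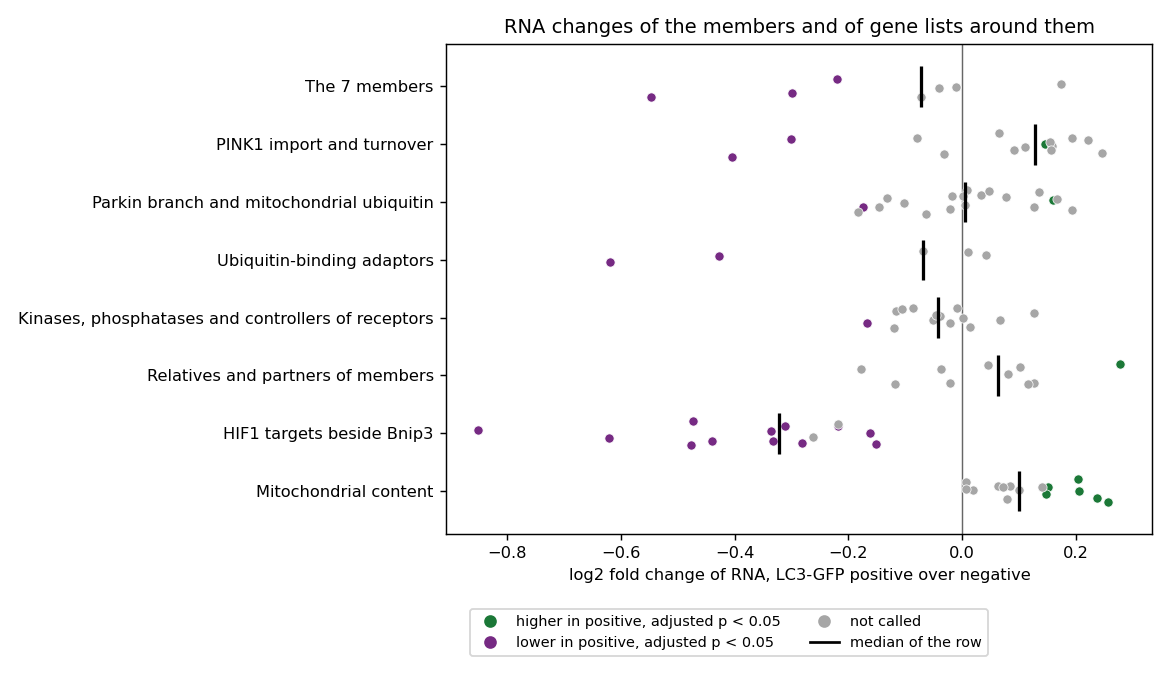
Log2 fold change of RNA in LC3-GFP positive over negative cells for the 7 members and for 7 gene lists around them; each point is a gene, colours give the call by edgeR's test and black lines are medians. The HIF1 targets lie to the left of 0 with 12 of 14 called lower, and the mitochondrial content genes lie to the right with 6 of 15 called higher. The lists were chosen with earlier results of these data known.

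The genes whose pattern over the 4 RNA libraries was nearest to each called member were found as the smallest Euclidean distance between mean-centred log2 CPM values. For Pink1 they were Ctla2a, Slc9b2 and Mturn, at distances of 0.034, 0.060 and 0.061. For Bnip3 they were Arih2, Klhl6 and Gm12070, at 0.013, 0.014 and 0.017. For Bnip3l they were Fam92a, Clstn1 and Clcn3, at 0.010, 0.020 and 0.020. With 4 libraries in 2 groups, a small distance mainly says that a gene had nearly the same fold change.

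In chromatin, the start of every member lay under a peak in all 4 in vitro libraries and in all 8 tumour libraries, as it did for 83.5% and 77.9% of all genes in the table. Pileup, fold enrichment and q are the authors' values from the peak caller, and they are compared only within a library. The Pink1 start peak ranked above 97.9% to 99.7% of the peaks of its library by q in vitro. The Fkbp8 start peak ranked above 62.5% to 79.5% of them in vitro, the lowest range of the 7 members there. The summit of the Pink1 start peak lay 211 to 335 bp inside the gene in vitro, and that of Bnip3 at -279 to -215 bp from its start, where minus means upstream. The Phb2 start peak is shared with Emg1, a gene on the other strand that begins 110 bp away.

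Merged over libraries, the members held 17 of 73648 regions in vitro. Of these 11 were found in all 4 libraries, beside 53.8% of all regions. One lay in both positive and neither negative library, beside 8.03% of all regions, and 1 in both negative and neither positive library, beside 3.32%. The region of positive cells lay in the Fundc1 gene body at chrX:17565873-17566546, 5779 to 6452 bp from its start, with pileups of 21 and 12 in positive replicates 1 and 2. The region of negative cells lay in the Bcl2l13 gene body at chr6:120878294-120879067, 42064 to 42837 bp from its start, with pileups of 27 and 17 in negative replicates 1 and 2. In tumours neither place held a peak in any of the 8 libraries.

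To compare the populations gene by gene, the bases under peaks were summed over each extended gene body. In vitro, 1 of 7 members had more covered bases in both positive than in both negative libraries, beside 31.6% of 12917 genes, and 1 had fewer, beside 8.4%. Fundc1 had 1514 and 1866 bases in positive libraries, against 1233 and 1216 bases in negative libraries. Bcl2l13 had 2885 and 2557 bases in positive libraries, against 3047 and 3144 bases in negative libraries. With 2 libraries against 2, the exact two-sided permutation test gives at least p = 0.333, the value of both genes, and cannot pass 0.05. With peaks of -log10 q of at least 5 alone, the Fundc1 difference was 139 bases in place of 466 and its groups overlapped, since the peak of positive replicate 2 in the gene body had a -log10 q of 3.86.

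The libraries differed in how much was called, with 63761 and 53869 peaks in positive and 56476 and 49634 peaks in negative libraries in vitro. As a share of the bases covered in the whole library, 6 of 7 members (all but Fundc1) were lower in both positive than in both negative libraries, beside 26.6% of genes that were lower and 17.6% that were higher on this scale. The order of the populations in vitro thus depended on the scaling. The starts of Mpeg1, a macrophage gene, of the B cell gene Cd79a and of the T cell gene Cd2 were open in both positive and in neither negative library, while starts of the melanoma and fibroblast lists were open in none. Of the B cell list 6 of 7 starts were open in each positive and 5 of 7 in each negative library, and of the macrophage list 3 of 5 in each positive and 2 of 5 in each negative library. Their part in the member regions was not tested.

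In tumours, 1 library stood apart. Negative replicate 2 had 55171 peaks over 59.7 Mb, against 27406 to 37477 peaks over 27.5 to 43.4 Mb in positive libraries and 33704 to 41435 peaks over 36.7 to 42.0 Mb in the other negative libraries. All 5 macrophage and monocyte starts that could be placed were open in negative replicate 2, against 2 in each positive library and 2 to 3 in the other negative libraries. Those of Lyz2 and Mpeg1 were open in that library alone among the 8. CD8 T cell starts were open at 8 of 8 in every tumour library but negative replicate 2, which had 7 of 8. The starts of melanoma and fibroblast genes were open in none of the 8 libraries, and of the B cell list 0 to 3 were open in positive and 0 to 1 in negative libraries. The tests of covered bases and the counts of regions in tumours are given with and without this library.

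**Figure D3:**
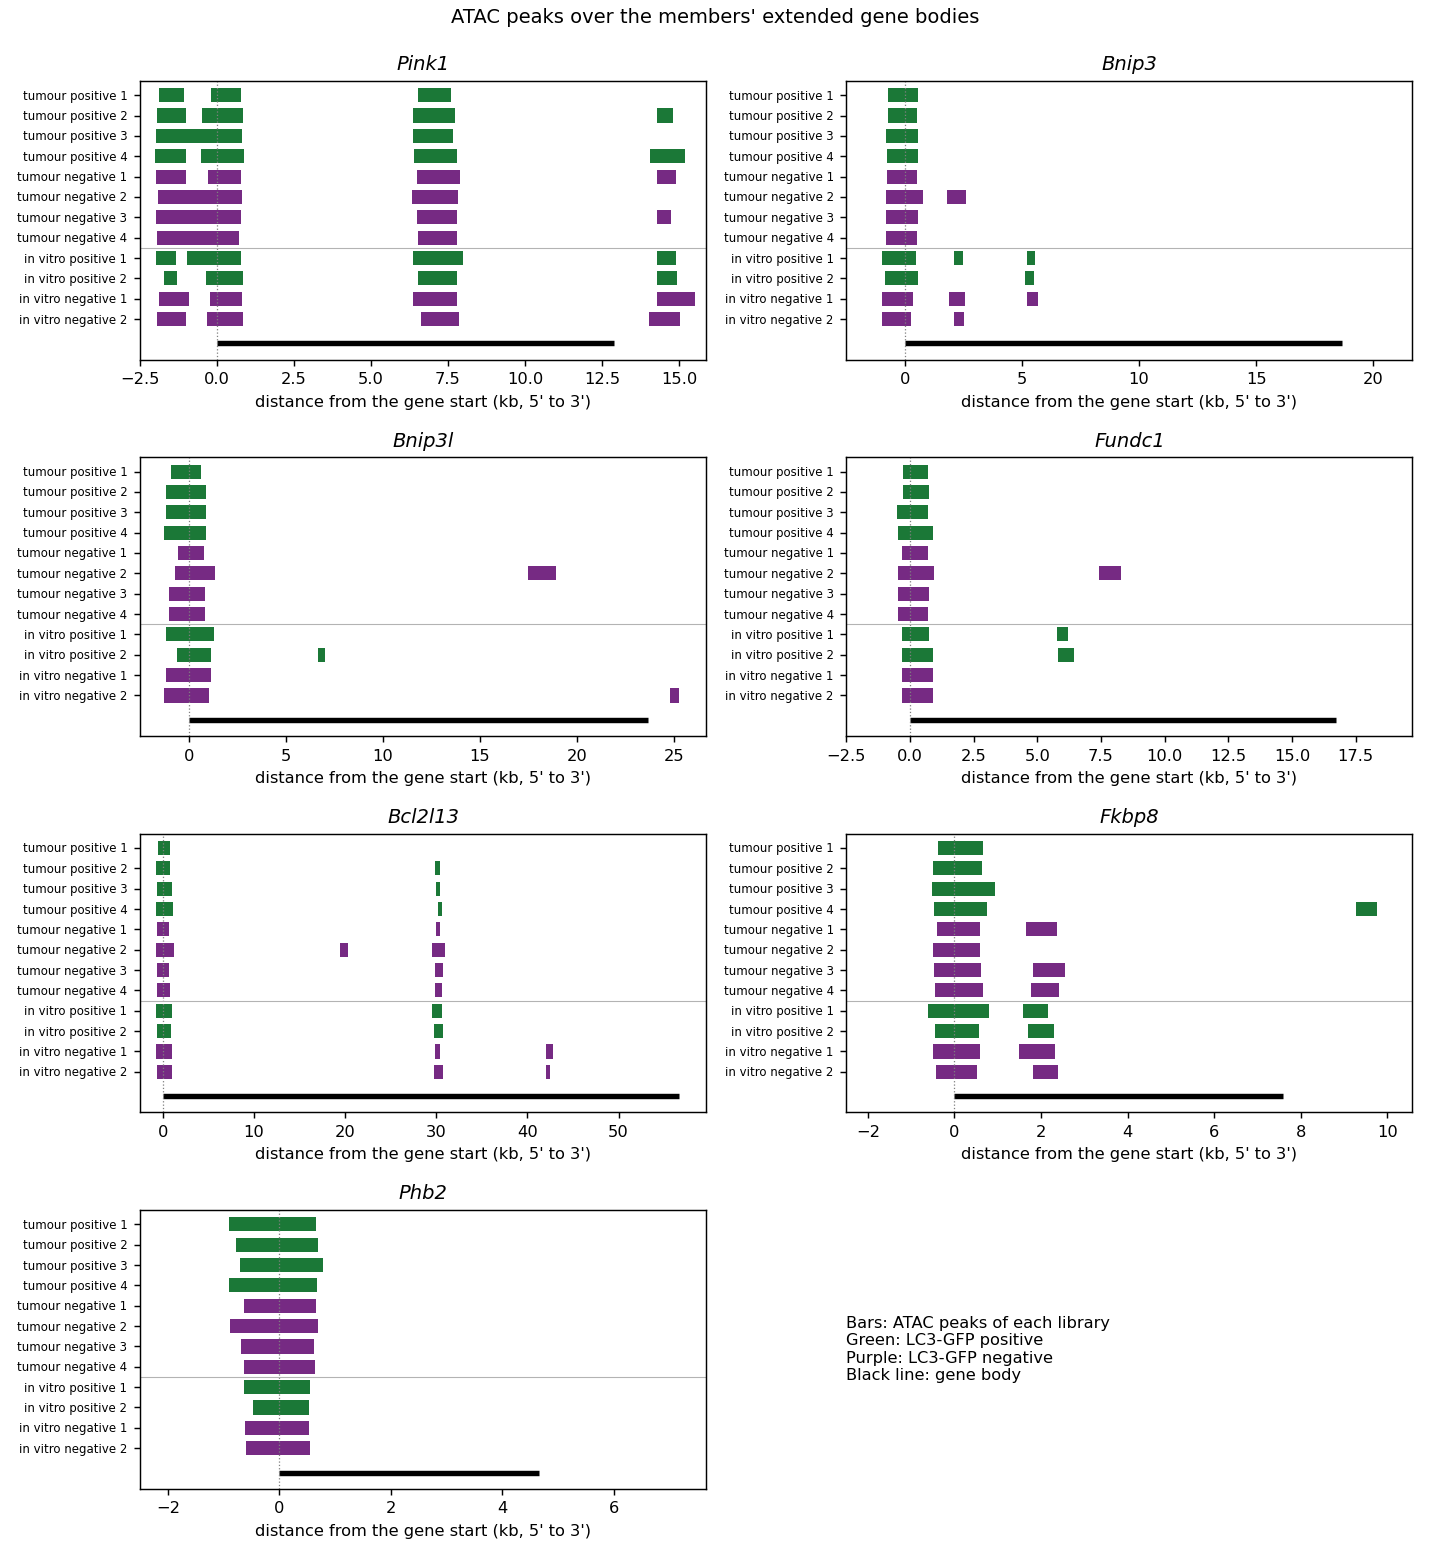
ATAC peaks of each library over the 7 extended gene bodies, by distance from the gene start in kb; green bars are LC3-GFP positive and purple bars LC3-GFP negative libraries, and the black line is the gene body. All starts are covered in all 12 libraries, tumour negative replicate 2 holds peaks of its own in Bnip3l, Fundc1 and Bcl2l13, and the second Fkbp8 peak is missing from the 4 tumour positive libraries.

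The members held 16 of 72327 merged regions in tumours. Of these 8 were found in all 8 libraries, beside 29% of all regions. None was found in all libraries of 1 population and in none of the other, beside 0.691% of all regions for positive and 1.04% for negative cells. Without negative replicate 2 the members held 12 regions, of which 8 were found in all 7 libraries, beside 46.5% of all regions, 0 in positive cells alone, beside 1.21%, and 1 in all negative and no positive libraries, beside 2.62%. That region lay in the Fkbp8 gene body, at chr8:70529389-70530291, 1646 to 2548 bp from the start. It had a peak in 0 of 4 positive and in 3 of 4 negative libraries (replicates 1, 3 and 4), and no peak in negative replicate 2. In vitro a peak overlapping this place was found in both positive and both negative libraries.

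Of the 7 members 0 had groups that did not overlap in covered bases in tumours, beside 0.868% of 12900 genes that were higher and 3.43% that were lower. The exact two-sided permutation test gave p between 0.143 (Phb2) and 0.886 (Bnip3l), and none of the 12900 genes passed after Benjamini-Hochberg adjustment (555 had an unadjusted p under 0.05). Without negative replicate 2, 1 member was higher in every positive library, beside 2.4% of genes, and 1 was lower, beside 4.31%.

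The member that was higher without that library was Phb2. It had 1547, 1473, 1480 and 1568 bases in positive replicates 1 to 4, against 1290, 1578, 1306 and 1285 bases in negative replicates 1 to 4. Negative replicate 2 alone reached the positive range. The mean difference was 152 bases with all libraries (p = 0.143, exact two-sided permutation test) and 223 bases without negative replicate 2 (p = 0.0286, the smallest this exact permutation test allows). Since that library alone reached the positive range, leaving it out separated the groups by construction. As a share of the covered bases of the library, Phb2 was higher in all 4 positive than in all 4 negative libraries (p = 0.0286, exact permutation test), as were 5.08% of genes, while 1.98% were lower. Neither p of 0.0286 from these exact permutation tests was adjusted over genes or settings, so Phb2 is not called.

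The member that was lower without that library was Fkbp8. It had 1046, 1131, 1465 and 1513 bases in positive replicates 1 to 4, against 1734, 1073, 1812 and 1765 bases in negative replicates 1 to 4. Negative replicate 2, which lacked the second Fkbp8 peak, fell among the positive libraries. The mean difference was -307 bases with all libraries (p = 0.2, exact permutation test) and -482 bases without negative replicate 2 (p = 0.0571, exact permutation test), which does not pass 0.05 even without adjustment.

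For Bnip3, covered bases were 1265, 1275, 1381 and 1312 in positive libraries, against 1304, 2381, 1394 and 1311 in negative libraries. Apart from negative replicate 2, the groups lay in the same range. Fundc1 showed the same arrangement, with 987 to 1377 bases in positive libraries, against 2265 bases in negative replicate 2 and 1007 to 1198 bases in the other negative libraries. Bnip3l had 1565 to 2177 bases in positive libraries, against 3482 bases in negative replicate 2 and 1337 to 1844 in the others, and Bcl2l13 had 1313 to 2271 bases in positive libraries, against 4442 bases in negative replicate 2 and 1759 to 2386 in the others. Peaks that no other tumour library had at those places, 1 in each of Bnip3, Bnip3l, Fundc1 and Bcl2l13, added to these totals. Mean differences with all libraries were -289 bases for Bnip3, -164 for Bnip3l, -264 for Fundc1 and -774 for Bcl2l13. Without negative replicate 2 they were -28.1, 289, 20.7 and -196 bases in the same order, with p of 0.486, 0.286, 0.8 and 0.629 in exact two-sided permutation tests.

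Pink1 had 2886, 4161, 4107 and 4636 bases in positive libraries, against 4054, 4225, 4539 and 3934 bases in negative libraries, and the groups overlapped (p = 0.743 with all libraries and 0.857 without negative replicate 2, exact permutation tests). Its start peak reached 1986 bp upstream in positive replicate 3, against 1918, 1992 and 1961 bp in negative replicates 2 to 4, where it was joined to the peak next upstream. In the other tumour libraries and in all in vitro libraries the 2 peaks stayed apart. A region 6336 to 7976 bp inside the Pink1 gene was open in all 12 libraries, as were all member starts. The extended Pink1 gene body also reached into Ddost, a neighbour gene 798 bp away. A region inside Ddost had a peak in 2 positive and 2 negative tumour libraries and added to the Pink1 totals of those libraries.

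**Figure D4:**
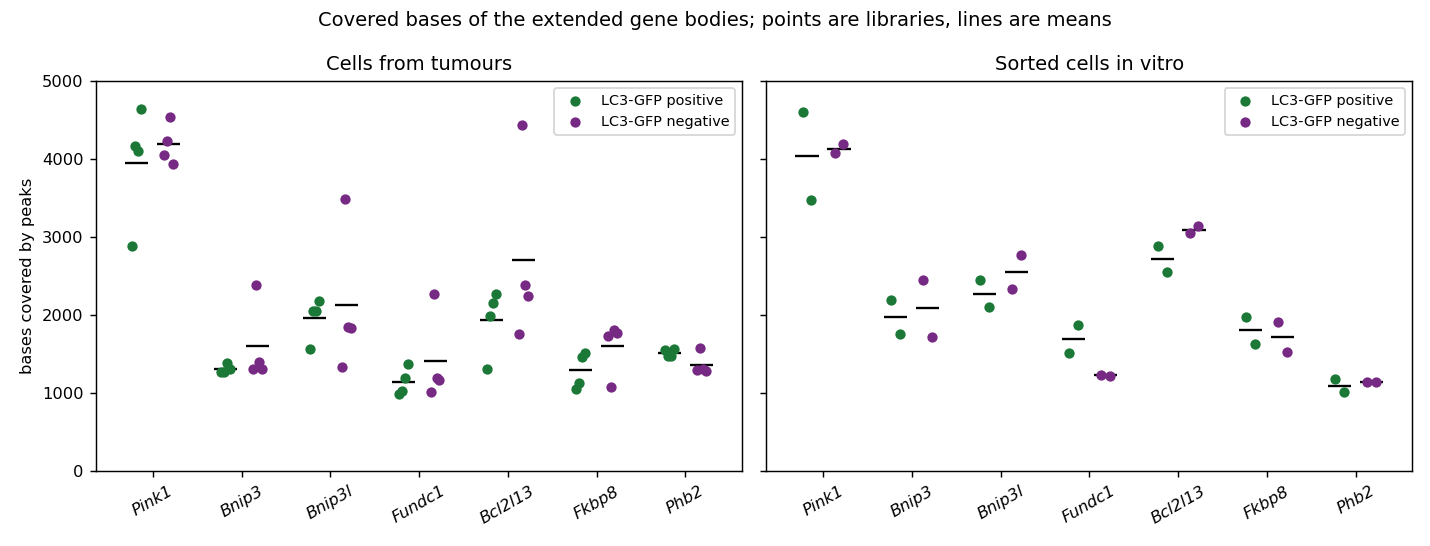
Bases covered by peaks over each extended gene body; points are libraries, lines are means, and LC3-GFP positive stands left of negative within each gene. In tumours, negative replicate 2 is the high point of Bnip3, Bnip3l, Fundc1, Bcl2l13 and Phb2 and the low point of Fkbp8 among negative libraries.

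Cells from tumours and cells before transfer are set side by side without a test, since the peak tables are separate and differ in peak number. Over Bnip3, a region 1788 to 2602 bp from the start had a peak in 0 of 4 positive and 1 of 4 negative tumour libraries, and in 1 of 2 positive and 2 of 2 negative libraries before transfer. A second one 5140 to 5664 bp from the start had no peak in tumours, and peaks in 2 of 2 positive and 1 of 2 negative libraries before transfer. A region 29491 to 30990 bp inside Bcl2l13 was found in 3 of 4 positive and 4 of 4 negative tumour libraries, and in all 4 libraries before transfer. Bnip3, Fundc1 and Fkbp8 each had a region within the gene that was found before transfer in both positive libraries and in no positive tumour library. Those of Bnip3 and Fundc1 were in no negative tumour library either. The Bcl2l13 region of both negative libraries before transfer was also in no tumour library. All tumour libraries but negative replicate 2 held fewer peaks than any in vitro library. The share of all regions lost in this way was not counted.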

How the data were processed

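RNA-seq and ATAC-seq libraries of CO-treated CD8+ T cells were grouped by the population named in the labels. The 7 genes and the gene lists around them were chosen with earlier results of these data known. The authors deposited estimated counts per gene, of which 22.5% to 23.8% in a library were not whole, made with Partek and STAR on mm10 per the submitters' processing notes, which also name DESeq2. The counting method, strandedness and versions are not given in the sources used here, so reads of overlapping or antisense genes are uncertain. The authors also deposited ATAC peaks called in each library on its own (cutadapt, BWA and MACS2 on mm10, per the submitters' processing notes), with the pileup signal, fold enrichment and -log10 of the p-value and q-value per the file headers. A Tn5 offset of the reads is not given in the sources used here. ATAC read depth is unknown.

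Estimated counts were rounded, filtered with filterByExpr, scaled by TMM and tested with edgeR 4.0.16 (R 4.3.3), without a replicate block, with Benjamini-Hochberg adjustment over all genes tested and a threshold of 0.05. A standard error is the absolute log2 fold change divided by the square root of the F statistic. A count of 3 in a library equals 0.167 to 0.210 CPM. The scripts were tested on simulated data. Replicates differed by more than sampling noise (chi-square per degree of freedom 2.13 in positive and 4.40 in negative libraries). The deposited start was read as the first base and the deposited end as the base after the last, which leaves 1 base of doubt. Peaks of an experiment that shared at least 1 base were merged, and covered bases were compared by exact two-sided permutation tests. Marker starts counted as open with a peak within 250 bp. Exon and intron annotation was not used here. The named genes were the 7 members, at most 3 called genes per direction with the largest changes in each list, and the 3 nearest genes of each called member. The marker genes of cell types and the 2 uncalled HIF1 targets were named outside this rule, after their values were seen. The alternatives tried were other normalization (library size alone, DESeq2 1.42.0), no filter on low counts, each library left out, a replicate block, and for peaks other extensions, a stricter q, shares of covered bases, equal peak numbers and peak counts. A fit without Rn45s and tumour regions without negative replicate 2 were added after seeing the data.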

Additional observations from a re-analysis of the deposited data

Results flagged for a closer look

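In 4 of the 7 genes, negative replicate 2 from tumours lay far from the other 3 negative libraries in covered bases, with a gap to the nearest library that exceeded the critical value of Dixon's test at the 95% level. It was the highest negative library for Bnip3 (2381 bases), Fundc1 (2265 bases) and Phb2 (1578 bases), and the lowest for Fkbp8 (1073 bases). Chance alone flags some groups in such a test, about 5% of them. All 4 flags fell on the same library, which also had the most peaks of the 8.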

How the results depend on the processing

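Pink1, Bnip3 and Bnip3l were called lower under all 9 RNA alternatives, including the fit without Rn45s and the replicate block, with which 3 members were lower and 0 higher. With library size alone Fkbp8 had a log2 fold change of 0.022 and Phb2 of 0.052, both opposite in sign to the result given. Leaving out 1 RNA library gave a log2 fold change of Phb2 between -0.087 and 0.072, with its sign turned without positive replicate 1 (0.028) and without negative replicate 1, and 0 to 1 members called higher and 3 to 4 called in all, beside 5.56% to 13.1% of all genes higher and 8.46% to 14.9% lower in those fits, which leave 1 library in a group. Over all genes, library size alone called 2242 higher and 1203 lower, DESeq2 718 and 1015, against 1362 and 1638. Deviations of replicate 1 had a correlation of 0.06 between positive and negative RNA libraries over the genes tested. That value cannot show if libraries of the same number shared a source. With a replicate block for covered bases, exact sign flips cannot go below p = 0.125 in tumours or 0.5 in vitro, so that no member could pass.

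In vitro, 1 member (Bcl2l13) did not overlap at -log10 q of at least 5, beside 38.8% of genes, and 6 as shares of covered bases, against 2. Leaving out a library gave 3 to 5, with 5 without positive replicate 1, positive replicate 2 or negative replicate 1, beside 67.1%, 78.4% and 71.5% of all genes, so that with 1 library against 2 most genes did not overlap. In tumours the count was 1 as shares (Phb2), 0 to 2 with a library left out (2 without negative replicate 2, beside 6.8% of genes), against 0, and regions of members in 1 population numbered 1 without it, a setting added after seeing the data, against 0. Signs turned in tumours, where no difference was called, for Pink1 (4.93) and Bnip3l (4.95 bases per Mb covered) as shares and for Pink1 by peak number (0.5 peaks). With a library left out, differences in bases ran from -470 to 113 for Pink1, -426 to 289 for Bnip3l and -399 to 20.7 for Fundc1. In vitro, where no test can pass, signs turned for Bnip3l (324 bases without extension), Phb2 (415 with 5 kb), Pink1 (98.5 without extension and 212 with equal peak numbers) and Fkbp8 (-204.5 with equal peak numbers or the stricter q and -2.04 bases per Mb as shares), 7 of 49 values. Those 49 include the replicate block, whose differences equal the main ones by construction, and peak-number differences of 0. Neither could count as turned. With a library left out 6 of 28 turned, in 4 members, with Pink1 between -654.5 and 477.5 bases. The cause was not tested. Unknown ATAC depth and 2 libraries a group in vitro limit these results.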
